A study of Mus musculus with 2 samples.

Results

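The CD28 family and its neighbours on the T cell surface set how strongly a T cell answers antigen. Antigen receptor signals are raised by CD28 and ICOS, which recruit phosphoinositide 3-kinase, and are held back by CTLA-4, which takes the CD80 and CD86 ligands from CD28, and by PD-1 and BTLA, whose cytoplasmic tails recruit tyrosine phosphatases. A second set shares ligands of the nectin family: CD226 activates, while TIGIT and CD96 are its counterparts, with TIGIT inhibitory. LAG-3 binds MHC class II, and CD160 binds the same TNF receptor family protein, HVEM, as BTLA.

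Transcripts of 10 of these receptors (Cd28, Icos, Ctla4, Pdcd1, Btla, Lag3, Tigit, Cd96, Cd226 and Cd160) were taken by gene symbol from a single-cell table of 19837 genes, and all 10 were present. The cells came from spleens of female C57/BL6N mice in 3 groups of 3: remimazolam at 6 mg/kg with spleens taken after 4 h, the same dose with spleens taken after 8 h, and saline, which the labels place at 0 h. Remimazolam is a short-acting benzodiazepine that acts on the GABA(A) receptor. The mice of a group shared 1 sample tag, so each treatment is 1 pool, all 3 pools were captured together on the BD Rhapsody platform, and no time-matched saline pool was analysed here. The labels describe the sort as CD45+CD3+CD5+ in one place and as CD45+ in another.

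Of 16123 kept cells, 15208 were T cells by their Cd3 transcripts, namely 4996 in the saline pool, 5109 in the 4 h pool and 5103 in the 8 h pool, with medians of 2548, 2529 and 2531 molecules per cell in that order. A further 389 cells formed a B cell gate. The T cells were divided by lineage genes that are not among the 10 receptors, and 12329 of them fell into 9 subsets. These were Foxp3 cells with or without S100a4, CD4 cells with Cxcr5, CD4 cells with S100a4, the remaining CD4 cells, CD8 cells with at least 2 molecules of Ccl5, the remaining CD8 cells, cells with Trdc, and cells with Klrb1c or Zbtb16. Marker genes that the gates did not use followed them. Il2ra stood at 702 molecules per 1000000 molecules of the gate (CPM) in Foxp3 cells, against 20.8 CPM in remaining CD4 cells, and Tox2, a gene of follicular helper cells, at 200 CPM in CD4 cells with Cxcr5, against 6.10 CPM in remaining CD4 cells. Tcrg-C1, a γδ receptor constant gene, stood at 604 CPM in Trdc cells and at 308 CPM in Klrb1c or Zbtb16 cells. With 1 pool per treatment there is no replicate, so no test was made. Each 95% interval covers counting error only and leaves out the spread between cells and between mice.

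Promoter sequences of 6 of the receptors were taken from the RefSeq table used here (build GRCm38.p6), and the 250 bases before the start site are shown for 4 genes whose levels carry the results below: Ctla4, Pdcd1 and Tigit, which were high in the same subsets, and Cd160, which was high in others. Capitals mark GGAAA, the core bound by NFAT, or its reverse complement TTTCC.
Ctla4 (plus strand, chr1:60908775-60909024): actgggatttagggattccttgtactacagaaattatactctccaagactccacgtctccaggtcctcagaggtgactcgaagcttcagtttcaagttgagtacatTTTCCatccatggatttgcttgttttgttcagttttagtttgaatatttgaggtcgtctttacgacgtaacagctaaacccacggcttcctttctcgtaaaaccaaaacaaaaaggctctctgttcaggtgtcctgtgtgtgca
Pdcd1 (minus strand, chr1:94052554-94052803): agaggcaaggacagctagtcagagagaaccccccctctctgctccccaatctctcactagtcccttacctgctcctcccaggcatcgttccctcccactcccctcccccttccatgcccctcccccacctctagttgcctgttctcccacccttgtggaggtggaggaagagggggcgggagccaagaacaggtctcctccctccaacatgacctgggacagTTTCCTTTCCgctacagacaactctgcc
Tigit (minus strand, chr16:43664185-43664434): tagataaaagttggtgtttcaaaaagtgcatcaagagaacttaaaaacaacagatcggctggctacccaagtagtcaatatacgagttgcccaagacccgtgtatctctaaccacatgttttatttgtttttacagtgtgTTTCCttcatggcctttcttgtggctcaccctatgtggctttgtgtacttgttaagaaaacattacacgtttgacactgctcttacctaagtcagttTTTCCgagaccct
Cd160 (minus strand, chr3:96829352-96829601): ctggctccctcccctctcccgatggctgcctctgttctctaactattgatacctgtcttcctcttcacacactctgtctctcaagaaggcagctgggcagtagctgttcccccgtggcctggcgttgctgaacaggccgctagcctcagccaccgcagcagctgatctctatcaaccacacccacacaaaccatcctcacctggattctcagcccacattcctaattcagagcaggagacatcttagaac
The core stood 1 time before Ctla4, 2 times before Pdcd1 and 2 times before Tigit, was not in the Cd160 window shown, and was in 55.6% of 32851 promoter windows of the same length on either strand. Cd160 has a second entry at chr3:96814522-96814771, which held it 1 time. The RUNX string TGTGGT, found in 14.0% of all windows, was in both Cd160 windows and in those of Tigit, Btla and Cd96. The AP-1 string TGACTCA, the ETS string CCGGAAG and the forkhead string TGTTTAC, found in 4.46%, 6.91% and 3.17% of windows, were in none of the 7 receptor windows.

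In the genome (GENCODE M21, GRCm38), Cd28, Ctla4 and Icos lie in that order on the plus strand of chromosome 1, at 60716800 to 60773359, 60887000 to 60915832 and 60977927 to 61000320. Gaps of 113640 and 62094 bases separate them. Pdcd1 lies on the same chromosome at 94038305 to 94052553, on the minus strand. Tigit, Btla and Cd96 are on chromosome 16, Cd160 on chromosome 3, Lag3 on chromosome 6 and Cd226 on chromosome 18. Of the 10, Cd160 alone overlaps another gene of the table, Pdzk1 on the opposite strand, and reads of the pair cannot be told apart without the strand.

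Cd28, the founding costimulatory receptor, was found in every subset, and 35.5% of T cells had a molecule. In remaining CD4 cells it stood at 251, 264 and 272 CPM in the saline, 4 h and 8 h pools, and in remaining CD8 cells at 131, 116 and 110 CPM. The CD4 values were above the CD8 values in all 3 pools with no overlap. CD8 cells with Ccl5 stood at 168, 194 and 180 CPM in the saline, 4 h and 8 h pools, which was 1.52-fold over remaining CD8 cells (interval 1.36 to 1.70, higher in 3 of 3 pools). Cd28 in Foxp3 cells was 0.992-fold that of remaining CD4 cells (0.899 to 1.09). In the order of the 9 subsets, the top 6 (CD4 cells with Cxcr5, CD4 cells with S100a4, Klrb1c or Zbtb16 cells, Foxp3 cells with S100a4, remaining CD4 cells and Foxp3 cells without S100a4, at 369 to 260 CPM over the pools) had ranges that overlapped from one to the next, and remaining CD8 cells were lowest at 119 CPM.

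Icos, the inducible costimulator that sustains follicular helper and regulatory cells, was most abundant in Foxp3 cells with S100a4, at 1095, 1057 and 794 CPM in the saline, 4 h and 8 h pools. Those values lay above every other subset in every pool. The next 4 were Klrb1c or Zbtb16 cells, CD4 cells with Cxcr5, CD4 cells with S100a4 and Foxp3 cells without S100a4, at 424, 419, 355 and 299 CPM over the pools. Each range overlapped that of its neighbour in rank, while the first (364 to 550 CPM) lay above the last (269 to 324 CPM). Remaining CD4 cells stood at 101, 107 and 107 CPM in the saline, 4 h and 8 h pools, and remaining CD8 cells at 61.2, 55.5 and 61.8 CPM. Foxp3 cells held 15.9% of all Icos molecules of T cells while making up 4.35% of T cells.

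**Figure D1:**
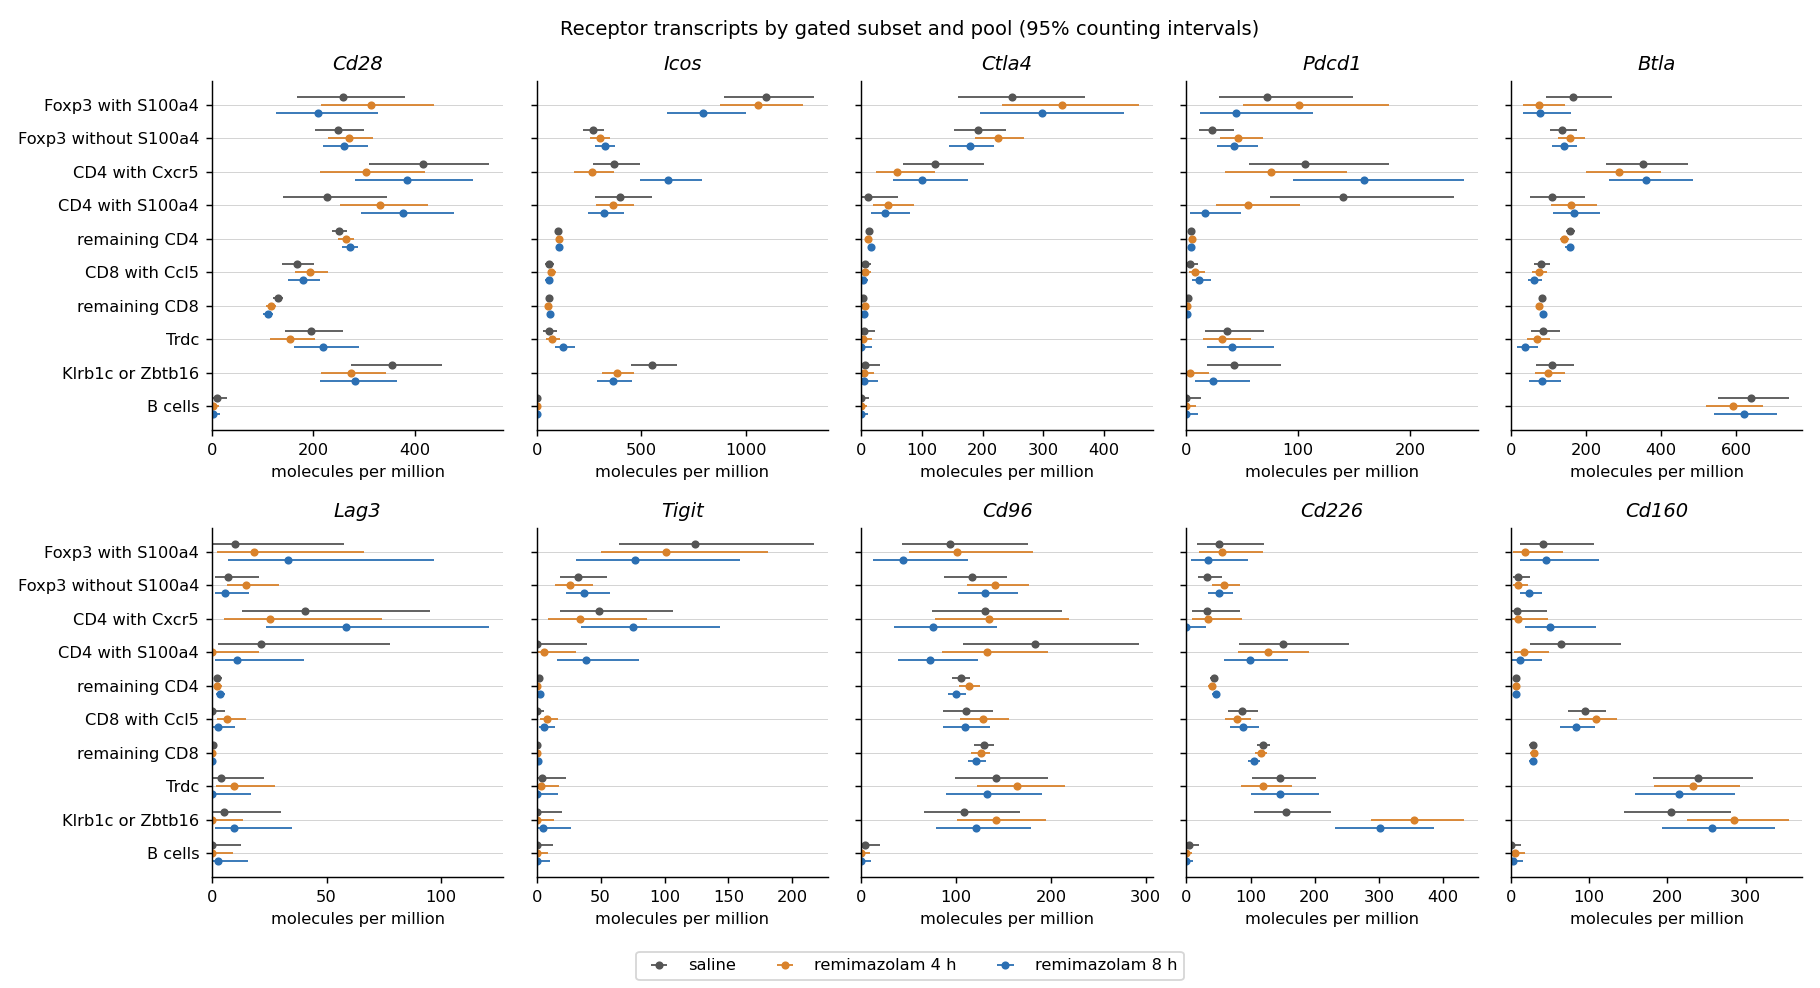
CPM of the 10 receptors (x axes, linear from 0, each with its own scale) in 9 T cell subsets and in B cells (rows), 1 point for each of the saline, 4 h and 8 h pools with its 95% counting interval. Ctla4 and Tigit were high in the Foxp3 rows, Pdcd1 and Lag3 in the row of CD4 cells with Cxcr5, Cd160 in the Trdc and Klrb1c or Zbtb16 rows, and Btla in B cells, where it stood between 593 and 641.

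Ctla4, the inhibitory CD80 and CD86 receptor on which regulatory cells depend, followed Foxp3. In Foxp3 cells it stood at 202, 243 and 196 CPM in the saline, 4 h and 8 h pools, and in remaining CD4 cells at 13.1, 10.8 and 15.0 CPM. The ratio of Foxp3 cells to remaining CD4 cells was 16.4 (13.7 to 19.8), and the 2 groups were far apart in each pool. Over the pools the level was 294 CPM in Foxp3 cells with S100a4, 199 CPM in those without, 94.3 CPM in CD4 cells with Cxcr5, and 4.42 CPM in remaining CD8 cells. Foxp3 cells held 47.1% of all Ctla4 molecules of T cells.

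Tigit, the inhibitory receptor for the poliovirus receptor family, had the same leading subsets. Its levels in Foxp3 cells with S100a4 were 124, 101 and 77.2 CPM in the saline, 4 h and 8 h pools, resting on 12, 11 and 7 molecules. CD4 cells with Cxcr5 stood at 48.9, 33.8 and 75.3 CPM, and remaining CD4 cells at 2.11, 0.504 and 2.73 CPM. The first 2 groups were above the third in each pool, and Foxp3 cells as a whole stood 23.8-fold over remaining CD4 cells (14.8 to 39.7). Foxp3 cells held 44.6% of the 175 Tigit molecules. Its reads per molecule, 2.72, were lower than for nearly all genes with at least 100 molecules (the median gene had 5.22 and Tigit lay at percentile 0.611).

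Pdcd1, which encodes PD-1, had its highest level over the pools in CD4 cells with Cxcr5, at 106, 76.0 and 159 CPM in the saline, 4 h and 8 h pools. Remaining CD4 cells stood at 4.45, 5.29 and 4.56 CPM, and remaining CD8 cells at 1.40, 0.957 and 1.01 CPM. CD4 cells with Cxcr5 were thus 23.9-fold over remaining CD4 cells (15.7 to 36.2) and above them in each pool. Their range overlapped that of Foxp3 cells with S100a4 and that of CD4 cells with S100a4, which spread from 140 CPM in the saline pool, through 55.3 CPM at 4 h, down to 16.7 CPM at 8 h on 13, 10 and 3 molecules. That gate held 22, 54 and 43 cells in the saline, 4 h and 8 h pools, and its follicular helper markers summed to 366, 199 and 133 CPM, whose part in the Pdcd1 values was not tested. Trdc cells also carried Pdcd1, at 36.5, 31.5 and 41.2 CPM in the saline, 4 h and 8 h pools, above both remaining groups in each pool. CD8 cells with Ccl5 stood at 3.02, 7.77 and 11.0 CPM, which was 6.61-fold over remaining CD8 cells (3.13 to 13.9) on 16 molecules against 17.

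Lag3, the MHC class II receptor, was sparse, with 120 molecules in all T cells. CD4 cells with Cxcr5 stood at 40.8, 25.3 and 58.6 CPM in the saline, 4 h and 8 h pools, on 5, 3 and 7 molecules, and remaining CD4 cells at 2.34, 2.27 and 3.42 CPM. All 3 values of the CD4 cells with Cxcr5 were above those of the remaining CD4 cells, a ratio of 15.5 (7.82 to 29.1). In remaining CD8 cells there were 4 molecules in the 3 pools together.

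Btla, the HVEM receptor, was the one member with a higher level in B cells than in any of the 9 T cell subsets. The B cell gate stood at 641, 593 and 622 CPM in the saline, 4 h and 8 h pools, and 71.0% of its cells had a molecule (66.2% to 75.4%), against 23.3% of T cells (22.6% to 24.0%). Within T cells it was highest in CD4 cells with Cxcr5, at 351, 287 and 360 CPM in the saline, 4 h and 8 h pools. Remaining CD4 cells had 158, 142 and 156 CPM and remaining CD8 cells 83.0, 75.8 and 86.4 CPM, so that the 3 groups kept this order in every pool. For the other 9 receptors the B cell gate gave 0% to 1.29% of cells with a molecule at a median of 2180 molecules per cell, against 2537 in T cells, which is the level that free RNA could give. In remaining CD8 cells the shares with Ctla4, Pdcd1, Lag3 or Tigit lay between 0% and 1.15% in each pool, while 0 of 389 B cells had Ctla4, Pdcd1 or Tigit, which allows up to 0.944%. At this depth those shares were not separated from background. In remaining CD4 cells the shares with Tigit (0.358%), Lag3 (0.577%) and Pdcd1 (0.975%, interval 0.722% to 1.29%) were not separated from it either, so the folds of these 3 genes over remaining CD4 cells are over a level that may be background. The limit follows from the 389 cells of the B cell gate, and a background of that size was not shown.

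Cd226, the activating partner of Tigit and Cd96, was higher in CD8 than in CD4 cells that remained after gating. Remaining CD8 cells stood at 120, 116 and 106 CPM in the saline, 4 h and 8 h pools and remaining CD4 cells at 43.3, 40.1 and 46.0 CPM, with the CD8 values higher in each pool. CD8 cells with Ccl5 had less than remaining CD8 cells, with a ratio of 0.741 (0.633 to 0.864) and lower values in 3 of 3 pools. CD4 cells with S100a4 had more than remaining CD4 cells, at 151, 127 and 99.9 CPM in the saline, 4 h and 8 h pools, a ratio of 2.80 (2.08 to 3.70). CD4 cells with Cxcr5 held 8 molecules in all, 22.2 CPM, the lowest of the 9 subsets, and none of them was from the 8 h pool. For Cd96, the 9 subsets lay between 81.0 and 148 CPM over the pools, and the range of each overlapped that of its neighbour in rank. Trdc cells (133 to 164 CPM), Foxp3 cells without S100a4 (117 to 141 CPM) and remaining CD8 cells (121 to 129 CPM) still lay above remaining CD4 cells (100 to 114 CPM) with no overlap.

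Cd160, a glycolipid-anchored receptor of cytotoxic and innate-type lymphocytes, marked a different set of cells. Klrb1c or Zbtb16 cells stood at 205, 285 and 257 CPM in the saline, 4 h and 8 h pools, and Trdc cells at 239, 233 and 215 CPM. These 2 subsets overlapped and lay above all others in each pool. CD8 cells with Ccl5 followed at 95.1, 109 and 82.8 CPM, 3.39-fold over remaining CD8 cells (2.86 to 4.01), and remaining CD4 cells stood at 6.32, 6.80 and 5.92 CPM. Trdc cells held 13.6% and Klrb1c or Zbtb16 cells 12.8% of the Cd160 molecules of T cells, while making up 2.01% and 1.46% of T cells.

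**Figure D2:**
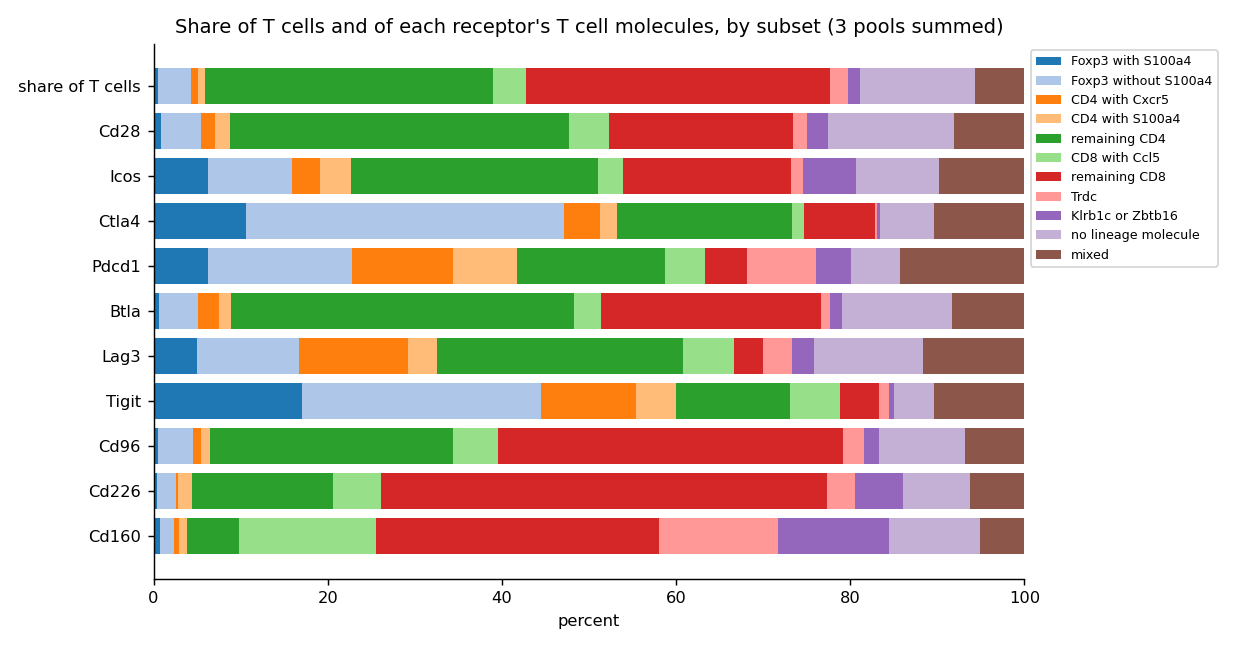
Percent of T cells in each subset (top bar) and percent of each receptor's T cell molecules found in that subset (bars below), summed over the 3 pools, with T cells that had no lineage molecule or molecules of both lineages as the last 2 segments. Foxp3 cells take 4.35% of the top bar, 47.1% of the Ctla4 bar and 44.6% of the Tigit bar.

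These contrasts were set against all genes by asking for a 2-fold difference in the same direction in each of the 3 pools, among genes with at least 30 molecules. In Foxp3 cells over remaining CD4 cells, 5 of 10 receptors were higher (Icos, Ctla4, Pdcd1, Lag3 and Tigit), where 4.25% of 10074 genes were. Lag3 fell short of 2-fold, at 1.93, with higher gate thresholds, which also move CD4 cells that miss them into the remaining CD4 cells. None was lower, where 1.32% of genes were. In CD4 cells with Cxcr5 over remaining CD4 cells, 6 of 10 were higher (the same 5 and Btla), where 2.46% of genes were, and none was lower, where 4.75% were. In CD4 cells with S100a4 over remaining CD4 cells, 3 of 10 were higher (Icos, Pdcd1 and Cd226), where 3.95% of genes were, and none was lower, where 5.68% were. In CD8 cells with Ccl5 over remaining CD8 cells, 2 of the 8 receptors with enough molecules were higher (Pdcd1 and Cd160), where 1.92% of genes were, and none was lower, where 1.33% were. The first 3 contrasts share the remaining CD4 cells, where Pdcd1, Lag3 and Tigit were not separated from background. Nor was Pdcd1 in remaining CD8 cells, so the calls of these genes are over a level that may be background. The minimum was summed over both subsets. Tigit, with 23 molecules in remaining CD4 cells, and Pdcd1, with 17 in remaining CD8 cells, reached it only with those of the other subset. Ighm, an immunoglobulin gene, stood at 680 CPM in Foxp3 cells and at 264 CPM in remaining CD4 cells, while the B cell genes Cd79a and Ms4a1 stood at 3.34 and 1.67 CPM in Foxp3 cells. The part of Ighm in these results was not tested.

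Cells with molecules of several inhibitory receptor genes were also counted. A subset with higher levels of each gene has more such cells even if the genes are independent. In CD4 cells with Cxcr5, Btla was found in 58.4% of cells, Cd96 in 27.4% and Pdcd1 in 23.9%. Whether the genes met more often than such single shares give was not tested. Of CD4 cells with Cxcr5, 22.1% had molecules of 3 or more of the 7 inhibitory genes (14.9% to 30.9%), as did 9.82% of Foxp3 cells (7.66% to 12.3%), 0.935% of remaining CD4 cells (0.688% to 1.24%), 0.849% of remaining CD8 cells (0.620% to 1.13%) and 0 of 389 B cells, which allows a share of up to 0.944%. With each cell thinned to 1500 molecules, possible for 14484 of 15208 T cells, the shares were 9.82% in CD4 cells with Cxcr5, 2.42% in Foxp3 cells, 0.272% in remaining CD4 cells and 0.0975% in remaining CD8 cells, in the same order. Across treatments the share in all T cells was 1.62% (1.29% to 2.01%) in the saline pool, 1.94% (1.58% to 2.35%) at 4 h and 1.88% (1.53% to 2.29%) at 8 h, with intervals that overlapped.

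**Figure D3:**
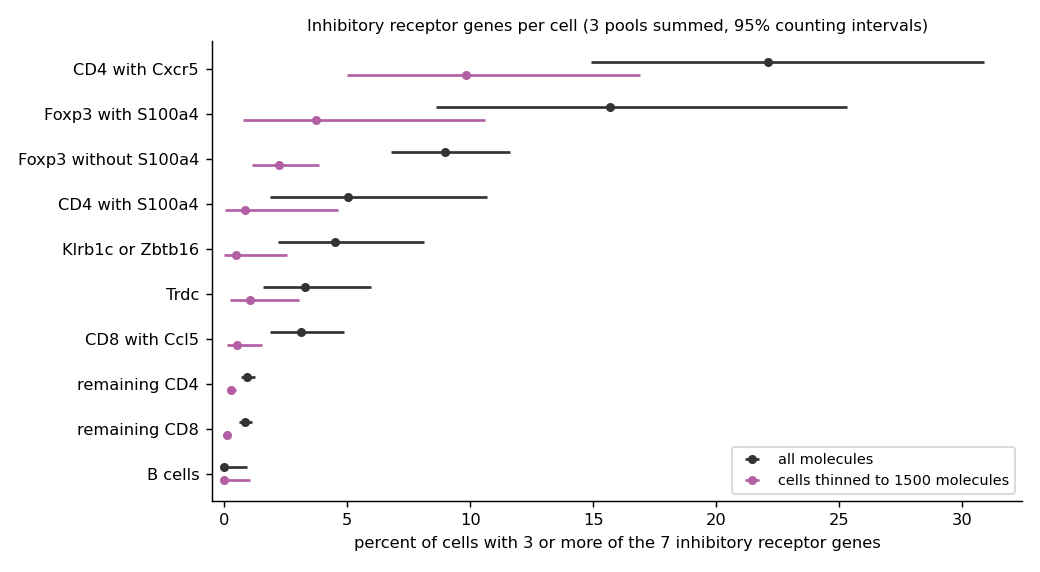
Percent of cells (x axis) with molecules of 3 or more of the genes Ctla4, Pdcd1, Btla, Lag3, Tigit, Cd96 and Cd160, by subset (rows), over the 3 pools, with 95% counting intervals, from all molecules and after thinning to 1500 molecules per cell. CD4 cells with Cxcr5 stand at 22.1% and 9.82%, above remaining CD4 cells at 0.935% and 0.272%.

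Pairs of genes were counted in the same cells. Among Foxp3 cells, 55.1% of the 214 cells with Ctla4 had Icos, against 25.2% of those without Ctla4, and 20.6% had Tigit, against 3.35%. Among CD4 cells without Foxp3, 59.3% of the 91 cells with Pdcd1 had Icos, against 17.7% of those without Pdcd1, 17.6% had Lag3, against 0.484%, and 15.4% had Tigit, against 0.484%. Cells positive for a receptor held somewhat more molecules, with a median of 2875 in the Pdcd1 cells and 2425 in the others. Neither depth nor the mix of subsets was matched in any pair given here. CD4 cells with Cxcr5 and CD4 cells with S100a4 held 27 and 15 of the 91 cells with Pdcd1. Icos was found in 54.9% and 54.6% of the cells of these subsets, against 16.8% of remaining CD4 cells. The part of the subset mix in the pairs was not tested. Over all T cells, 34.5% of cells with Cd160 had Cd226, against 16.3% of cells without it.

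The genes most like each receptor were sought over 27 points (9 subsets in 3 pools) by Pearson correlation of log2(CPM + 10), as a description with no test, since points of one pool share a library and those of one subset share cells of a kind. Icos ran closest to Maf (r = 0.948), a transcription factor of follicular helper cells. Ctla4 ran closest to Tnfrsf4 (0.941), which encodes the costimulator OX40, then Slamf1 (0.916), and Tigit to Sec14l1 (0.916) and Ctla4 itself (0.912). Lag3 followed Nfatc1 (0.877) and Cd226 followed Cxcr6 (0.887). Cd160 went with 3 genes of natural killer type cells: Slamf7 (0.911), Klre1 (0.899) and Klrc1 (0.898). Lower values were found for Cd28 (Ly6a, 0.852), Pdcd1 (Rap1a, 0.852), Btla (Dgkz, 0.841) and Cd96 (Mrpl3, 0.811).

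Few of the receptors differed between the pools by the fold rule when all T cells were summed. A gene was called lower at a ratio of 0.8 or less and higher at the reciprocal of 0.8 or more, given at least 20 molecules. Cd160 was the one member called higher at 4 h, Tigit the one at 8 h, and none of the 10 was called lower at either time. At 4 h over saline that is 1 of 10 higher and 0 lower, where 8.53% of 11309 genes were higher and 4.88% lower, and at 8 h over saline 1 of 10 and 0, where 7.08% were higher and 5.80% lower. At 8 h over 4 h Tigit was higher and none was lower, where 5.07% of genes were higher and 7.70% lower. The members' median log2 ratio was 0.08 at 4 h and 0.06 at 8 h, against 0.02 and -0.00084 over all genes tested, and both comparisons share the saline pool. These shares are near the background.

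Cd160 stood at 28.4, 36.2 and 30.3 CPM in the saline, 4 h and 8 h pools, on 389, 507 and 423 molecules. The 4 h pool was the high one. Its ratio at 4 h over saline was 1.28 (1.12 to 1.46), at 8 h over saline 1.07 (0.928 to 1.23), and at 8 h over 4 h 0.837 (0.734 to 0.955). The subsets rich in Cd160 were also more frequent in that pool: Klrb1c or Zbtb16 cells were 1.92% of T cells at 4 h (1.56% to 2.33%) and 1.14% in saline (0.865% to 1.48%), and Trdc cells 2.43% at 4 h (2.02% to 2.89%) and 1.86% in saline (1.51% to 2.28%). With the mix of subsets held at the mean of the 3 pools the 4 h ratio was 1.15, which is no longer a call. Within Trdc cells it was 0.974 (0.683 to 1.40), within remaining CD8 cells 1.04 (0.817 to 1.31) and within Klrb1c or Zbtb16 cells 1.39 (0.931 to 2.10). The summed level of the natural killer T markers (Klrb1c, Zbtb16, Cxcr6, Il2rb and Ccr2) in all T cells was 331, 409 and 374 CPM in the saline, 4 h and 8 h pools, and that of the neutrophil markers 0.802, 9.99 and 2.87 CPM. At 4 h the neutrophil markers stood at 32.3 CPM in remaining CD4 cells, which are low in Cd160, and at 0 CPM in Trdc and in Klrb1c or Zbtb16 cells.

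Tigit stood at 3.72, 3.71 and 5.16 CPM in the saline, 4 h and 8 h pools, on 51, 52 and 72 molecules, with the 8 h pool high. The ratio at 8 h over saline was 1.39 with an interval of 0.955 to 2.03, which holds 1. In Foxp3 cells, where it is most abundant, the ratio at 8 h over saline was 0.868 (0.487 to 1.55). In CD4 cells without Foxp3 there were 15, 7 and 28 molecules in the saline, 4 h and 8 h pools.

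**Figure D4:**
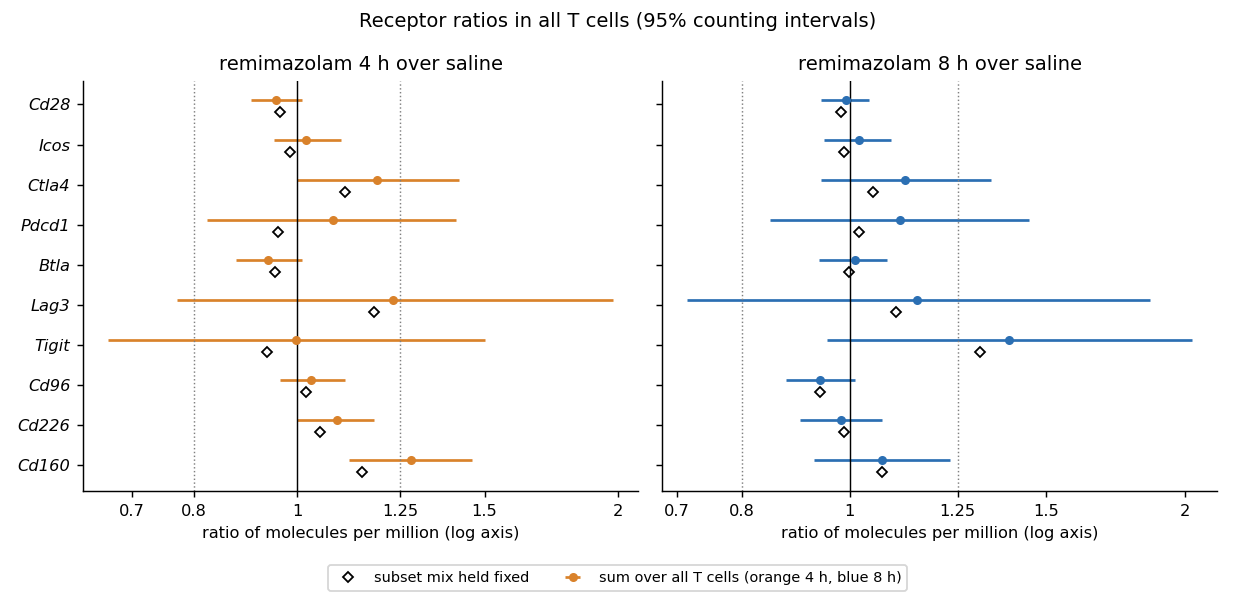
Ratio of CPM over saline (x axes, logarithmic) at 4 h and 8 h for the 10 receptors in all T cells (points with 95% counting intervals) and with the mix of subsets held fixed (diamonds, no interval). Dotted lines mark 0.8 and its reciprocal, and Cd160 at 4 h is at 1.28 as summed and at 1.15 with the mix held fixed.

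Counting intervals gave a second reading that takes depth into account. At 4 h over saline, 3 of 10 receptors had an interval above 1, where 8.03% of genes did: Cd160, Ctla4 (1.19, 1.00 to 1.42) and Cd226 (1.09, 1.00 to 1.18). None had one below 1, where 4.54% of genes did. At 8 h over saline none of the 10 had an interval above 1, where 5.20% of genes did, or below 1, where 4.99% did. Cd28 stood at 208, 199 and 207 CPM in the saline, 4 h and 8 h pools, Icos at 110, 113 and 113, Btla at 120, 112 and 120, and Cd96 at 116, 120 and 110. For these 4 abundant receptors the intervals of both ratios over saline lay within 0.876 and 1.11, so a larger change of the summed level was not seen at this depth. Pdcd1 (7.95, 8.56 and 8.81 CPM) and Lag3 (2.55, 3.14 and 2.94 CPM) had ratios of 1.08 to 1.23, and intervals wide enough to hold 0.849 and 1.41 for each.

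Within subsets the clearest difference lay in the Klrb1c or Zbtb16 cells, of which there were 57, 98 and 67 in the saline, 4 h and 8 h pools. Cd226 stood at 156, 354 and 301 CPM in the saline, 4 h and 8 h pools, on 29, 97 and 62 molecules. Both remimazolam pools were above the saline pool, with a ratio of 2.26 at 4 h (1.48 to 3.55) and of 1.92 at 8 h (1.22 to 3.10). Icos went the other way, at 550, 383 and 364 CPM in the saline, 4 h and 8 h pools, with ratios of 0.696 (0.525 to 0.924) at 4 h and 0.662 (0.485 to 0.901) at 8 h. Cd160 had ratios of 1.39 and 1.26 with intervals that held 1, and Cd28 of 0.769 and 0.791 with intervals that held 1. Pdcd1 had 8, 1 and 5 molecules in the saline, 4 h and 8 h pools.

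This is a gate of few cells, in which many genes passed the fold rule. By that rule, 5 of 6 receptors with 20 molecules were called in either direction at 4 h, where 52.9% of 4279 genes did, and 5 of 6 at 8 h, where 50.3% did. Intervals on the same side of 1 at both times were rarer: Cd226 was above, where 1.79% of 3640 genes were, and Icos below, where 1.87% were. This background was chosen after the values had been seen, and both ratios share the saline pool. The content of the gate moved too. Cells with Cxcr6, a chemokine receptor gene of natural killer T and resident cells, numbered 26 of 57 in the saline pool, 77 of 98 in the 4 h pool and 46 of 67 in the 8 h pool, which is 45.6%, 78.6% and 68.7% of the gate. The natural killer T markers, of which Klrb1c and Zbtb16 also set the gate, summed to 2535, 3604 and 3660 CPM in the saline, 4 h and 8 h pools. Natural killer markers (Ncr1, Klrb1c, Gzma, Eomes, Tyrobp and Fcer1g) summed to 911, 752 and 854 CPM. Among the cells with Cxcr6 alone, the Cd226 ratio over saline was 1.92 (1.13 to 3.44) at the earlier time and 1.64 (0.928 to 3.04) at the later one, where the interval held 1. The Icos ratio among them was 0.671 (0.465 to 0.978) at the earlier time and 0.605 (0.398 to 0.921) at the later one. The part of this change in the gate's content was not tested further. The saline excess of Icos over 4 h lay mostly in the cells with Zbtb16 and no Klrb1c, which held 59 of the 102 saline molecules. They stood at 998, 575 and 585 CPM in the saline, 4 h and 8 h pools, from 14, 22 and 17 cells. Cells with Klrb1c and no Zbtb16, most of the gate, stood at 335, 335 and 196 CPM, so they too were lower at 8 h. Among all cells with Klrb1c the 4 h ratio of Icos was 0.940 (0.631 to 1.41), so the difference at 4 h does not hold there.

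**Figure D5:**
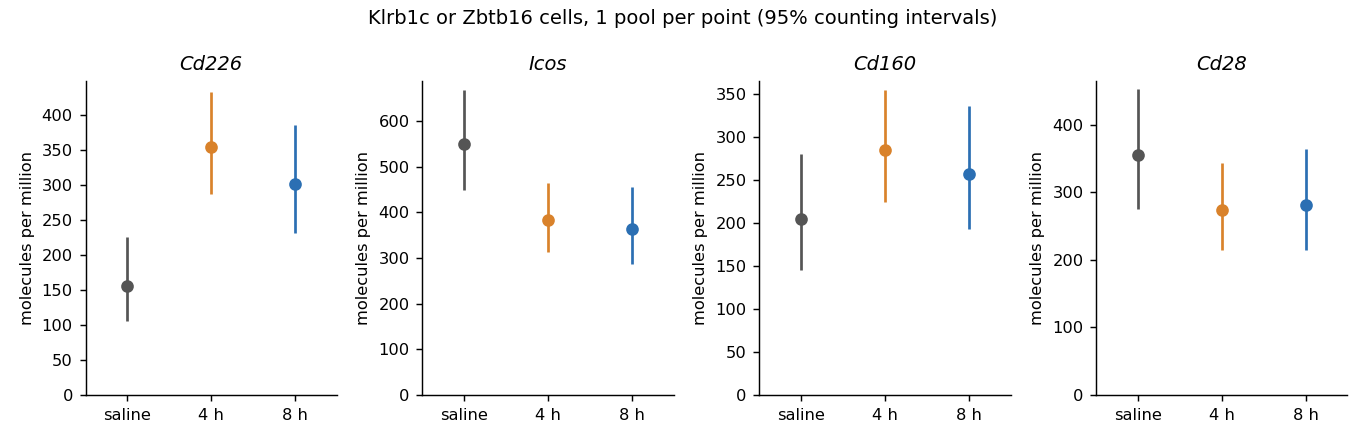
CPM (y axes, linear from 0) of Cd226, Icos, Cd160 and Cd28 in Klrb1c or Zbtb16 cells, 1 point per pool with its 95% counting interval. Cd226 is lowest in the saline pool (156), where Icos is highest (550), while the intervals of Cd160 and of Cd28 overlap among the pools.

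In remaining CD8 cells Cd28 stood at 131, 116 and 110 CPM in the saline, 4 h and 8 h pools. Both remimazolam pools were below the saline pool, with ratios of 0.888 (0.794 to 0.993) at 4 h and 0.841 (0.750 to 0.944) at 8 h. The share of these cells with a Cd28 molecule was 26.2%, 23.7% and 22.8% in the same order. In CD4 cells without Foxp3 the ratio at 8 h was 1.09 (1.01 to 1.19), on the other side of 1. Ctla4 in remaining CD8 cells had 16, 32 and 19 molecules in the saline, 4 h and 8 h pools, a ratio of 1.92 at 4 h (1.02 to 3.75) at a level that the B cell gate does not separate from background.

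In Foxp3 cells the intervals of the abundant members held 1. For Ctla4 the 4 h ratio over saline was 1.20 (0.934 to 1.55), with 0.970 at 8 h (0.742 to 1.27). For Icos these were 1.01 (0.847 to 1.22) and 0.930 (0.773 to 1.12). By the fold rule, 3 of 8 receptors with enough molecules were called in either direction at 4 h, where 40.6% of genes were, and 3 of 9 at 8 h, where 41.4% were. Over the 9 subsets, 59 receptor ratios at 4 h over saline had 20 molecules or more. Of these, 2 had an interval above 1, where 4.37% of all gene-by-subset ratios did, and 3 had one below, where 3.91% did. At 8 h over saline 58 had enough molecules, of which 4 were above, where 3.66% of ratios were, and 5 below, where 3.91% were. At 8 h over 4 h 55 did, of which 1 was above, where 3.73% of ratios were, and 0 below, where 4.39% were. The shares of all genes were added after the receptors' counts had been seen.

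Over all genes, 8.53% were called higher and 4.88% lower at 4 h over saline, and 7.08% and 5.80% at 8 h over saline. Related genes of the pathway were counted by the same fold rule. Among 22 signalling genes (such as Lck, which starts antigen receptor signalling, at 837, 838 and 851 CPM in the saline, 4 h and 8 h pools) none was past it at 4 h or at 8 h. None of 7 other costimulatory genes (the TNF receptors Tnfrsf4, Tnfrsf9, Tnfrsf18 and Cd27, with Cd40lg, Cd2 and Slamf6) was past it over saline at either time, with Tnfrsf18 nearest at 50.3, 61.7 and 57.0 CPM in the saline, 4 h and 8 h pools. Of 10 other inhibitory receptors with enough molecules, 2 were higher and 0 lower at 4 h, and 1 higher and 2 lower at 8 h. Klrg1, a receptor of effector cells, was higher at both times, with 73, 102 and 123 molecules in the saline, 4 h and 8 h pools and ratios of 1.37 (1.00 to 1.87) at 4 h and 1.65 (1.23 to 2.24) at 8 h. Cd244a (1.44 at 4 h, 0.514 at 8 h) and Cd101 (0.788 at 8 h) had intervals that held 1.

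Of 18 transcriptional regulators, 2 were higher and 0 lower at 4 h, where 8.53% and 4.88% of all genes were. At 8 h, 5 were higher and 1 lower, where 7.08% and 5.80% of all genes were. Tbx21, the regulator of type 1 effector cells, had 160, 256 and 226 molecules in the saline, 4 h and 8 h pools, with ratios of 1.57 (1.28 to 1.92) at 4 h and 1.39 (1.13 to 1.71) at 8 h. Maf, the gene that Icos followed across subsets, had a ratio of 1.32 (1.21 to 1.43) at 8 h on 1335 molecules against 996 in saline, while Icos itself was at 1.02 (0.949 to 1.09). Bcl6, the follicular helper regulator, was lower at 8 h, with 0.767 (0.637 to 0.922). Tox2, Irf4 and Nr4a2 were the other higher genes at 8 h, Tox2 at 1.32 and Irf4 at 1.26, and the intervals of all of them held 1. Nr4a2 was also past the fold at 4 h (1.44, 0.950 to 2.21).

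Of the ligands, Pvr, which binds Tigit, Cd96 and Cd226, stood at 43.0 CPM in all T cells and Cd274, which encodes a PD-1 ligand, at 25.9 CPM. Of 11 genes of the ligand list with enough molecules, 4 were higher and 1 lower at 4 h, where 8.53% and 4.88% of all genes were. At 8 h, 2 were higher and 2 lower, where 7.08% and 5.80% of all genes were. Fgl2 encodes a secreted fibrinogen-like protein and was counted in this list, though it is not an established ligand of the 10 receptors. Its level was higher at both times, at 1.80 (1.31 to 2.49) and 1.55 (1.12 to 2.17), on 62, 114 and 98 molecules in the saline, 4 h and 8 h pools. Over the pools Fgl2 stood at 126 CPM in Klrb1c or Zbtb16 cells, on 84 of its 274 molecules, at 42.8 CPM in Foxp3 cells and at 0.950 CPM in remaining CD4 cells. Klrb1c or Zbtb16 cells were 1.92% of T cells at 4 h and 1.14% in saline, and their part in the Fgl2 ratio was not tested. Icosl (1.29) and Lgals3 (1.44), which encodes a LAG-3 ligand, were higher at 4 h, and Cd80 was past the fold at both times (1.37 and 1.28) on 10 to 14 molecules a pool. The LAG-3 ligand genes H2-Aa and H2-Ab1 were lower at 8 h, at 0.563 (0.385 to 0.815) and 0.502 (0.345 to 0.720), and H2-Ab1 was lower at 4 h, at 0.702 (0.504 to 0.973). Their levels in the B cell gate were 4342 and 4090 CPM, and the part of free RNA in their few T cell molecules was not tested.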

How the data were processed

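The reads had been processed by the authors with BD's WTA Multiplex Rhapsody Analysis Pipeline 1.9.1, on GRCm38 with GENCODE M19, per the file headers. The deposited table holds whole-number counts of molecules and reads per cell and gene, with molecules adjusted by recursive substitution error correction, and deposited tag calls give 1 tag per cell (tag 8 saline, 10 for 4 h, 9 for 8 h). The aligner and the strand setting are not given in the sources used here. Of 17299 putative cells, 1063 multiplets, 60 undetermined cells and 2 with an unused tag were left out, as were cells under 200 genes or with 25% or more mitochondrial molecules. Doublets within a pool were not called. The 871 T cells with both CD4 or Foxp3 and CD8 molecules, and the 2008 with no lineage molecule, entered the sums over all T cells only.

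T cells had a molecule of Cd3d, Cd3e or Cd3g, fewer than 3 over a short list of B cell genes, and fewer than 3 of Lyz2 and Csf1r. The B cell gate had 3 or more molecules over that B cell list and no Cd3. Counts were summed per gate and pool and divided by the total of that gate in that pool (for all T cells 13709064 saline, 14013449 at 4 h, 13961170 at 8 h). Levels have exact Poisson, ratios conditional binomial and shares Clopper-Pearson 95% intervals. Between treatments a gene was called at a ratio of 0.8 or less, or its reciprocal or more, with at least 20 molecules in the 2 pools, and between subsets at 2-fold or 0.5-fold in each pool with at least 30. The arithmetic of the fold calls was checked on simulated counts, which says nothing of the conditions. Software was Python 3.11.15, numpy 2.4.6, scipy 1.17.1 and edgeR 4.0.16, used for TMM factors only.

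The 10 members, the gates and the lists were chosen with earlier results of these data known. All members are named, with the 3 genes most like each (among genes with 300 molecules in T cells that define no gate), of which the text gives 1 to 3, and list genes past the fold.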

Additional observations from a re-analysis of the deposited data

Results flagged for a closer look

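Receptors whose counting intervals lay on opposite sides of 1 in different subsets under the same comparison are given here. The difference between the subsets was not tested, and each value rests on 1 pool per treatment. All cases arose at 8 h over saline, where 58 subset ratios were formed, 4 of them with an interval above 1 and 5 with one below.

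Cd28 was higher in CD4 cells with S100a4, at 1.67 (1.01 to 2.87), and lower in remaining CD8 cells, at 0.841 (0.750 to 0.944). The CD4 cells with S100a4 numbered 22, 54 and 43 in the saline, 4 h and 8 h pools (0.440%, 1.06% and 0.843% of T cells), and their follicular helper markers summed to 366, 199 and 133 CPM.

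Icos was higher in CD4 cells with Cxcr5, at 1.71 (1.17 to 2.53), and in Trdc cells, at 2.26 (1.15 to 4.64). It was lower in Foxp3 cells with S100a4, at 0.725 (0.530 to 0.988), and in Klrb1c or Zbtb16 cells, at 0.662 (0.485 to 0.901). The CD4 cells with Cxcr5 numbered 35, 37 and 41 in the saline, 4 h and 8 h pools, and the CD8 memory markers summed to 522, 380 and 2159 CPM there. In Trdc cells the natural killer markers summed to 1160, 529 and 371 CPM and the CD8 markers to 426, 331 and 252 CPM in the same order. The part of these markers in the Icos ratios was not tested.

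Cd226 was higher in Klrb1c or Zbtb16 cells, at 1.92 (1.22 to 3.10), and lower in remaining CD8 cells, at 0.883 (0.784 to 0.995).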

How the results depend on the processing

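No paired analysis was possible because each treatment is 1 pool of 3 mice with no replicate number. For the same reason no replicate could be left out. The 10 receptor ratios in all T cells stayed within their counting intervals under all 240 alternatives run, among them TMM scaling, raw molecules and stricter cell filters. For receptors with few molecules the intervals are wide, so this asks little. Cd160 at 4 h stayed within its interval with the mix of subsets held fixed, but lost its call. Between subsets 155 alternatives stayed within the interval and 5 did not, all with higher gate thresholds. These leave fewer cells in the gates and move CD4 cells that miss them into the remaining CD4 cells, so both sides of a ratio change. Over remaining CD4 cells, Lag3 in Foxp3 cells was 1.93, Pdcd1 in CD4 cells with S100a4 4.99, and in CD4 cells with Cxcr5 Cd96 was 0.512, Cd226 0.156 and Cd160 11.0.

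The counts over all genes followed the limits set. Between treatments, with no minimum of molecules, 3826 genes were higher and 3214 lower at 4 h over saline, 3636 and 3341 at 8 h over saline, and 3263 and 3642 at 8 h over 4 h. A minimum of 50 molecules gave 610 and 300, 470 and 375, and 316 and 534 in the same order, and a fold of 1.5 gave 400 and 202, 293 and 243, and 227 and 305. Between subsets, a minimum of 100 molecules gave 243 genes higher in Foxp3 cells, 228 higher and 265 lower in CD4 cells with S100a4, 152 and 164 in CD4 cells with Cxcr5, and 107 and 71 in CD8 cells with Ccl5. A fold of 1.5 gave 751 higher and 303 lower in Foxp3 cells, 686 and 934 in CD4 cells with S100a4, 474 higher in CD4 cells with Cxcr5, and 328 and 309 in CD8 cells with Ccl5. Higher gate thresholds gave 1334 lower in CD4 cells with Cxcr5. Thinning to 1500 molecules lowered the share of cells with 3 or more inhibitory genes to 0.400% of all T cells, 2.42% of Foxp3 cells, 9.82% of CD4 cells with Cxcr5 and 0.272% of remaining CD4 cells.

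For Cd226 and Icos in Klrb1c or Zbtb16 cells, alternatives were chosen after seeing the data, and 27 of 28 stayed within the counting interval. The exception was Icos at 4 h among cells with Klrb1c, at 0.940 (0.631 to 1.41). Among cells with Zbtb16 the Cd226 interval held 1 at both times (1.77, 0.969 to 3.39, and 1.79, 0.972 to 3.43). Few molecules limit Lag3, Tigit and Pdcd1 most, and the mice within a pool cannot be told apart.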

Other observations

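Overlapping states inside the T cells, set by other genes, also differed in the receptors. The 357 cells with at least 2 molecules of Egr2 and Egr3, genes induced by antigen receptor signals, stood at 84.8, 125 and 74.6 CPM of Ctla4 in the saline, 4 h and 8 h pools, against 17.8 to 21.2 CPM in all T cells. Their Pdcd1 was at 43.6, 46.6 and 41.4 CPM, against 7.95, 8.56 and 8.81 CPM in all T cells. Both receptors were higher in that state in each pool. The Ctla4 molecules lay in 46 of the 357 cells, and which subsets the cells belong to was not held fixed.

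In the 289 cells with at least 2 molecules of the division genes Mki67 and Top2a, Icos stood at 195, 321 and 262 CPM in the saline, 4 h and 8 h pools. The ratios over saline were 1.65 (1.30 to 2.09) at 4 h and 1.34 (1.05 to 1.73) at 8 h, while in all T cells they were 1.02 and 1.02. Ratios were formed for every receptor in each of these states, and both Icos ratios share the saline pool. The share of all genes with such intervals in the dividing cells was not counted. These cells had a median of 5014 molecules, against 2537 in all T cells, and which subsets they belong to was not held fixed.

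In the 647 cells with at least 2 molecules of the interferon-induced genes Ifit1 and Ifit3, Ctla4 had 7, 22 and 3 molecules in the saline, 4 h and 8 h pools.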
